A study of Homo sapiens with 31 samples.

Results

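RNA of cells labelled PANC-1 and NC was compared between the label of 8 h of actinomycin D and the label of 0 h, with 2 libraries under each label. These 4 samples were taken by their titles from 31 samples in all, 20 of which form the actinomycin D series. PANC-1 is an established human pancreatic ductal cancer line. NC libraries carry a wild-type genotype label, and the libraries labelled KO, used below only as a second series, carry a knockout of KHSRP, an RNA-binding protein that binds AU-rich elements. Both labels were sampled at 0, 2, 4, 6 and 8 h, with 2 libraries at each time. By the labels all of the groups come from 1 cell line, which the counts of CDKN2A below go against, and the labels do not say whether replicates were separate cultures. The p-values therefore describe the scatter of single libraries, part of which can be technical. The 4 libraries of the comparison held between 20480124 and 24862548 counts.

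Actinomycin D binds DNA and stops RNA polymerases, so that a transcript with no new synthesis is left to decay. Short-lived messages, such as those of early-response transcription factors with AU-rich elements, are then lost sooner than stable ones, such as those of ribosomal proteins and metabolic enzymes. A count table shows only each transcript's share of its library, so a fall of all RNA together leaves no trace in it. The deposited tables also hold a second scale, molecules, whose total differs between libraries. Both scales are given here: counts per 1e+06 counts (CPM, scaled with trimmed mean of M values factors) for the share, and deposited molecules for the amount. CPM of genes shown for NC and KO together were scaled over all 20 libraries, and other CPM over the 10 NC libraries, so the same library can differ slightly between them.

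The time labels were first set against early-response transcripts, which a transcription block should leave low. In the NC series, FOS had 7.22 and 6.38 CPM in the libraries labelled 0 h, 5.79 and 5.37 at 2 h, 538 and 516 at 4 h, 8.05 and 6.85 at 6 h, and 4.79 and 5.80 at 8 h. EGR1 likewise stood at 289 and 287 CPM under the 4 h label, against 16.3 and 17.8 under the 0 h label. FOS was also highest under a later label in the KO series, with 65.4 and 65.7 CPM at 6 h and 1.14 and 0.537 CPM at 0 h. The libraries labelled 4 h in NC and 6 h in KO thus held far more FOS than those labelled 0 h, and every group is named by its label below. In bulk RNA, fewer cells of a type and less RNA per cell cannot be told apart.

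**Figure D1:**
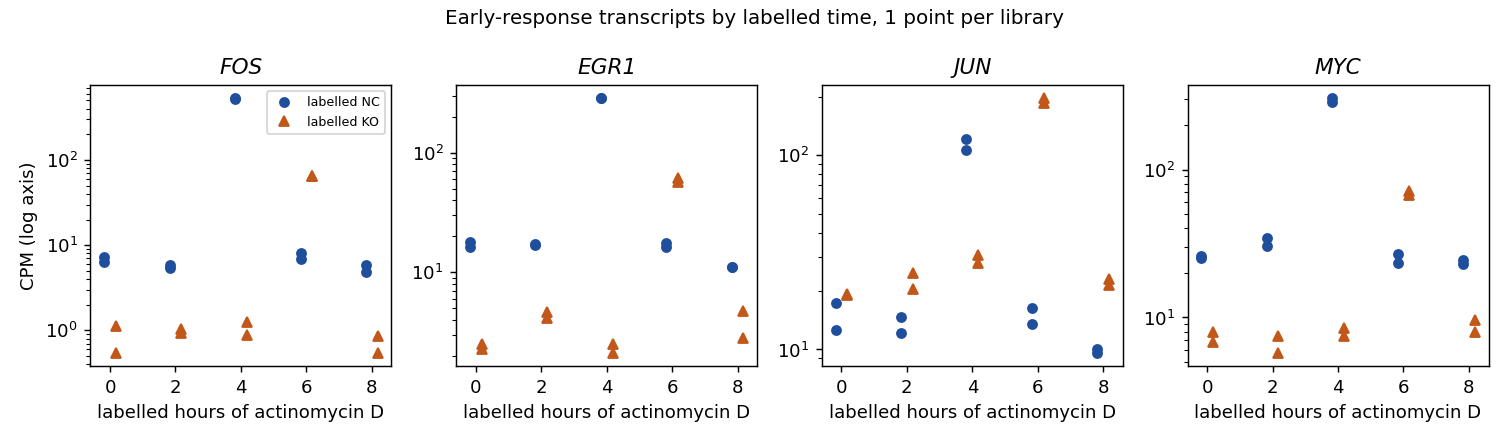
CPM on a log axis against the labelled hours of actinomycin D for FOS, EGR1, JUN and MYC, with 1 point per library and the NC and KO labels in different colours. FOS reached 538 and 516 CPM in the NC libraries labelled 4 h, while the libraries labelled 0 h and 8 h lay between 4.79 and 7.22 CPM.

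The labelled identity was checked next. KHSRP was at 439 and 452 CPM at the 0 h label and at 439 and 459 CPM at the 8 h label, and its log2 change was 0.01 (SE 0.04, adjusted p = 0.945). CDKN2A, a gene that PANC-1 is known to have lost, had 4779 and 4466 counts under the 0 h label and 5476 and 4692 under the 8 h label. This goes against the labelled line for the NC libraries. In the 10 KO libraries CDKN2A had 0 counts, and in the 10 NC libraries between 2728 and 5476, so the NC and KO libraries differed in a gene that the labels do not name as changed. NC is used below as a label, not as a checked identity. The 16 keratin and ductal genes tested, of 17, summed to between 4899.9 and 5378 CPM in the 4 libraries. Sums for other cell types also cover only the markers that passed the filter. The 3 of 6 fibroblast markers summed to between 28.8 and 36.1 CPM, mostly PDGFRB. The 2 of 4 endothelial markers summed to between 2.19 and 4.52, and the 2 of 5 immune markers to between 0.936 and 1.85. All 4 acinar and all 4 endocrine markers were at 0 in these libraries, and none of the 7 markers tested passed the test.

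Relative to the total, the libraries labelled 8 h and 0 h differed little. Of 16005 genes tested with edgeR's quasi-likelihood test over the 10 NC libraries, 286 were higher at the 8 h label (1.79%) and 331 were lower (2.07%) at an adjusted p under 0.05, together 3.86%. The median log2 change of the genes called higher was 0.22 and of those called lower -0.38, beside 0.00 over all genes. Only 5 called genes rose and 21 fell by a log2 of 1 or more. Between the 2 groups, CPM did not overlap for 7159 genes (44.7%), among them all 617 called. At the same threshold, the labels 2 h, 4 h and 6 h gave 5823 genes (36.4%), 9218 genes (57.6%) and 843 genes (5.27%) against the same 0 h libraries, so the 8 h label gave the fewest of the 4.

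The balance of rises and falls moved with the scaling. With plain library totals 120 were higher and 543 lower, with DESeq2 size factors 366 and 280, and with the library size set to the summed ribosomal protein counts 36 and 1793. That last scaling moved the median of all genes to -0.14. The split within a list moved with it, so directions are given relative to the median of all genes.

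The counts also rested on few libraries. Without NC 0h replicate 1 there were 73 higher and 99 lower, without NC 0h replicate 2 there were 73 and 107, and without NC 8h replicate 2 there were 98 and 63. Without NC 8h replicate 1 the counts were 359 and 303. Of the calls, 43 higher and 28 lower were kept in all 4 of these fits, while the sign of every one of the 617 was the same in all 4. The calls kept among the genes described here were those of RN7SK, MALAT1, TALAM1, MT2A, RPL24, TMSB10, HSPA5, PDIA4, CALR, HSP90AA1, HNRNPA1 and HNRNPA2B1, which were higher, and of HSPA8, NORAD, EGR1, SRSF2, AP5B1 and MARCOL, which were lower. All other called genes named below lost the call in at least 1 of the 4 fits.

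**Figure D2:**
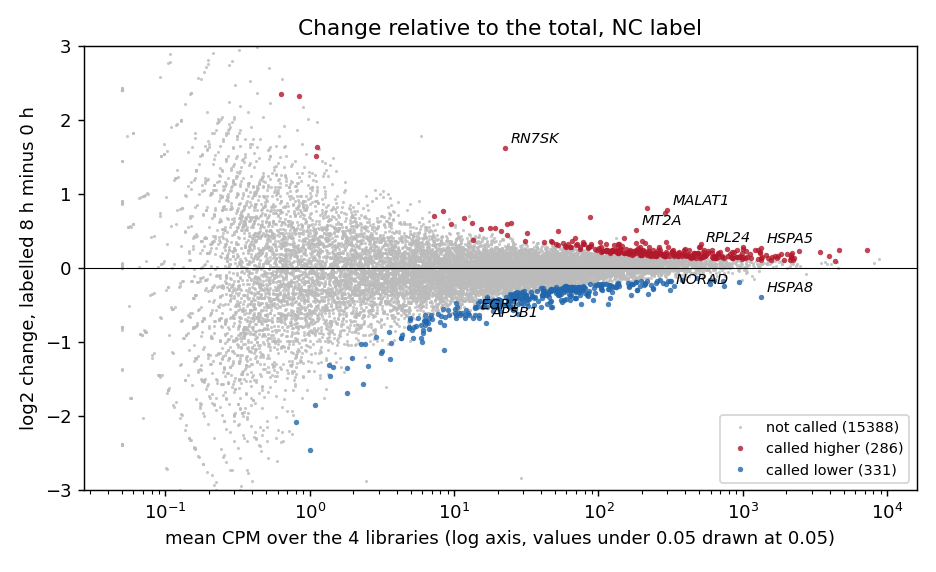
Log2 change between the libraries labelled 8 h and 0 h against the mean CPM of the 4 libraries on a log axis, 1 point per gene, with called genes in red (286 higher) and blue (331 lower). The 117 genes beyond a log2 of 3 either way lie outside the axis, and RN7SK, MALAT1 and HSPA8 stand away from genes of like level.

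With symbols of the LOC, LINC or clone type left out, the largest called rises among genes of at least 10 CPM were in nuclear noncoding RNAs. Among the LOC symbols left out, a called gene changed by 0.78 to 0.88 and another by 0.66 to 0.73. These ranges are those of the fits that leave out a library. RN7SK (chr6:52860418-52860749, plus strand, hg19) is an abundant RNA made by RNA polymerase III that holds the elongation factor P-TEFb inactive, and it carries no poly(A) tail, while these libraries are labelled as polyA RNA. It had 9.81 and 12.4 CPM under the 0 h label and 34.3 and 33.9 CPM under the 8 h label. The 2 groups were far apart, and the log2 change was 1.62 (SE 0.18, adjusted p = 1.93e-07). The other NC labels were lower than both, with log2 changes against 0 h of -3.81 at 2 h, -5.05 at 4 h and -0.99 at 6 h. In the KO series RN7SK had no count in either library labelled 0 h, and 36 and 16 counts in those labelled 8 h.

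MALAT1 (chr11:65265209-65273987, plus strand, hg19), a long noncoding RNA of nuclear speckles whose processed end has no poly(A) tail, was the next largest rise in that ranking. Its level was 226 and 211 CPM at the 0 h label and 399 and 352 CPM at the 8 h label. Both libraries labelled 8 h stood above both labelled 0 h, as in every gene called higher. The log2 change was 0.78 (SE 0.05, adjusted p = 1.10e-12). TALAM1 runs antisense across the same locus, and with no statement on strand in the counting, its change of 0.75 cannot be told apart from that of MALAT1. Its log2 change against 0 h was -0.53 at 2 h, 1.05 at 4 h and -0.79 at 6 h, so that among the NC labels it was highest at 4 h, where FOS and EGR1 also were, and next at 8 h. In the KO series it was 205 and 205 CPM at 0 h, 455 and 434 CPM at 6 h, where FOS was also highest, and 225 and 211 CPM at 8 h, and the change in NC was larger than in KO by a log2 of 0.69 (adjusted p = 1.11e-08).

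In the list of nuclear long noncoding RNAs and snoRNA hosts, MALAT1 included, 2 of 32 tested were higher and 2 lower, with a median log2 change of 0.06. The rise beside MALAT1 was that of ZFAS1, a snoRNA host, from 76.9 and 81.8 CPM to 97.3 and 101 CPM, a log2 change of 0.32 (SE 0.07, adjusted p = 0.00673). NORAD (chr20:34633540-34638882, minus strand, hg19), a cytoplasmic noncoding RNA that sequesters Pumilio proteins, fell from 346 and 342 CPM to 289 and 274 CPM, a log2 change of -0.29 (SE 0.04, adjusted p = 1.38e-05). TUG1 fell as well, with a log2 change of -0.25 (SE 0.06, adjusted p = 0.0181). Rises and falls were thus both seen among abundant noncoding RNAs.

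**Figure D3:**
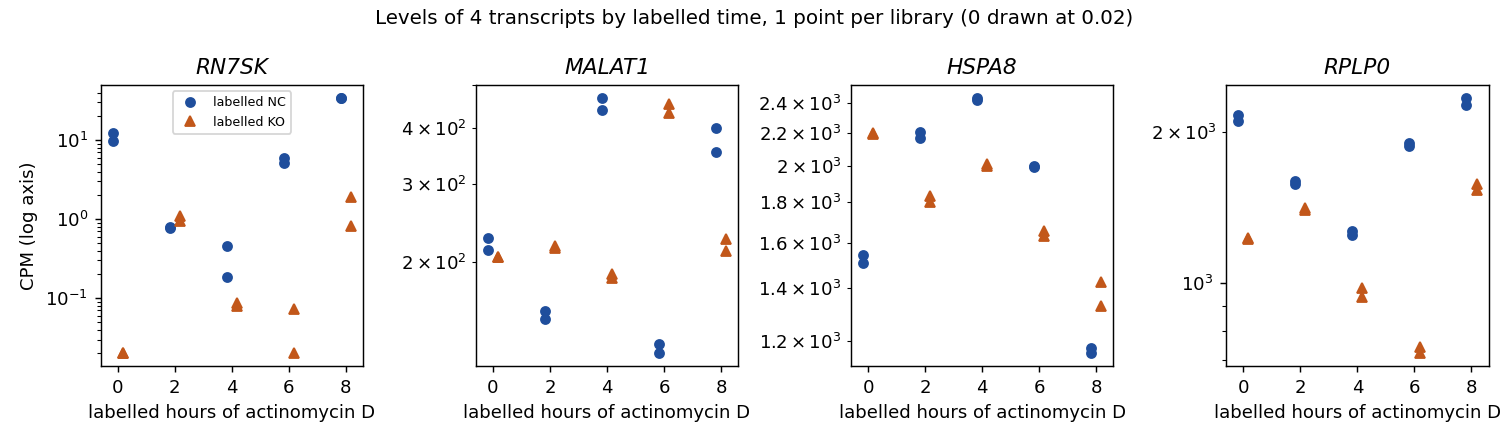
CPM on a log axis against labelled hours for RN7SK, MALAT1, HSPA8 and RPLP0, with 1 point per library, NC and KO in different colours, CPM scaled over the 20 libraries, and libraries with no count drawn at 0.02. In NC, RPLP0 was highest at the 8 h label (2264 and 2340.2 CPM) and lowest at the 4 h label (1267 and 1245 CPM), and HSPA8 showed the opposite order.

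Messages of ribosomal proteins made up the largest group of rises. Of 78 cytosolic ribosomal protein genes tested, 43 were higher and 0 lower, the median log2 change was 0.15, and 77 of the 78 lay above 0. At an unchanged call rule, 14 were higher without NC 0h replicate 1, 14 without NC 0h replicate 2, 49 without NC 8h replicate 1 and 16 without NC 8h replicate 2. Together the 79 genes summed to 56367 and 55977 plain CPM in the libraries labelled 0 h and to 59115 and 60621 in those labelled 8 h, against 41111 and 40839 in those labelled 4 h. Many of these genes have processed pseudogenes of near-identical sequence, so the reads of single members are uncertain.

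Vertebrate ribosomal protein messages begin with a C in an unbroken run of pyrimidines at the cap, the terminal oligopyrimidine tract, through which mTOR and LARP1 act on their translation and stability. The starts of the 3 largest called rises and of RPLP0 are shown because the group moved together. Each line gives 30 bases before and 20 bases from the start annotated in RefSeq (GRCh38.p14), 5′ to 3′ on the strand of the gene, with the pyrimidine run in capitals.
RPL36, chr19:5690265-5690314, plus strand: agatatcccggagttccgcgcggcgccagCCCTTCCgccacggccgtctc
RPL28, chr19:55385902-55385951, plus strand: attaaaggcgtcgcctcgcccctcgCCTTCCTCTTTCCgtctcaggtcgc
RPL24, chr3:101686699-101686748, minus strand: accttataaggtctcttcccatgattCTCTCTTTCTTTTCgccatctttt
RPLP0, chr12:120201092-120201141, minus strand: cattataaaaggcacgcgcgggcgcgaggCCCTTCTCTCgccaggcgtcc
The runs were 7, 13, 14 and 10 bases long. A run of at least 5 pyrimidines that opens with C within 5 bases of the annotated start was found on the sense strand in 57 of 77 promoters of the 62 ribosomal protein genes matched (74.0%). The same search found it in 22.4% of the promoters of all genes tested that were matched and in 21.1% of all 35116 promoters in the table. On the other strand the shares were 11.7%, 18.6% and 18.6%. For the genes called higher with the ribosomal protein genes left out the share was 22.9%, and for the genes called lower 21.1%, so outside the group the run was about as frequent in both sets as in all genes.

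The changes of the 78 ribosomal protein genes ran from -0.09 to 0.69 on the log2 scale. RPL24 had 453 and 459.8 CPM under the 0 h label and 540.2 and 566 CPM under the 8 h label, a log2 change of 0.28 (SE 0.04, adjusted p = 3.53e-05). RPL36 went from 269 and 277 CPM to 313 and 354 CPM, a log2 change of 0.29 (SE 0.05, adjusted p = 0.000592). RPLP0, a stalk protein often used as a reference gene, went from 2103 and 2161 CPM to 2257 and 2336 CPM, a change of 0.11 (SE 0.03, adjusted p = 0.0358). In each of the 3 both libraries labelled 8 h were above both labelled 0 h, as in every gene called higher. RPL28 was at 440.4 and 455 CPM and then at 525 and 564 CPM, with an adjusted p of 0.049. The calls of RPL36, RPLP0 and RPL28 were lost in 1, 3 and 4 of the fits that leave out a library, with adjusted p of up to 0.0546, 0.364 and 0.311. Where the library size was set to the summed ribosomal protein counts, the group's median was 0.02 against -0.14 for all genes, 4 members were higher and 2 lower, and RPLP0 changed by -0.03.

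Some cytoskeleton genes also rose relative to the total. Beside them, 1.79% of all genes were called higher, and 260 of 4001 in the highest level quartile. Of 26 actin and tubulin cytoskeleton genes, 8 were higher and 0 lower (median 0.10), with 25 of 26 above 0, while under the ribosomal protein scaling the median was -0.04, beside -0.14 for all genes, with 1 higher and 4 lower. With plain totals 3 were higher, and 1, 2, 14 and 2 were higher without NC 0h replicate 1, NC 0h replicate 2, NC 8h replicate 1 and NC 8h replicate 2. TMSB10, which encodes the actin-sequestering thymosin beta 10, was at 903 and 909 CPM and then at 1107 and 1114 CPM, a log2 change of 0.29 (SE 0.04, adjusted p = 3.78e-06). ACTB itself did not pass, at 8283 and 8459 CPM against 8658 and 9536 CPM (adjusted p = 0.217). Of 25 stress and unfolded protein response genes, 4 were higher and 1 lower, with a median of 0.00. The 3 called rises described next encode endoplasmic reticulum chaperones and a folding enzyme. HSPA5, which encodes the chaperone BiP, rose from 1196 and 1218 CPM to 1453 and 1467 CPM, a log2 change of 0.27 (SE 0.03, adjusted p = 7.96e-07). PDIA4, a disulfide isomerase, changed by 0.25 (SE 0.04), and CALR, which encodes calreticulin, by 0.22 (SE 0.03). PPP1R15A, the stress-induced phosphatase subunit GADD34, was the member that fell, with a log2 change of -0.37 (adjusted p = 0.0313).

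Energy metabolism and protein turnover were counted in 3 lists. Over all genes 1.79% were called higher, and in the highest level quartile 260 of 4001. Of 34 nuclear oxidative phosphorylation genes, 6 were higher and 1 lower (median 0.08), with COX5A of complex IV at 0.25 (adjusted p = 0.0168) and UQCRFS1, the Rieske protein of complex III, at -0.24 (adjusted p = 0.0381). Of 21 glycolysis genes, 3 were higher and 0 lower (median 0.08). ENO2, the neuronal enolase, led them at 16.7 and 18.02 CPM against 23.3 and 25.9 CPM, and SLC16A3, the lactate exporter MCT4, followed with a log2 change of 0.22. GAPDH was at 3766 and 3729.8 CPM and then at 3819.8 and 3973 CPM, a change of 0.06 (SE 0.03, adjusted p = 0.304). Of 31 proteasome genes, 4 were higher and 0 lower, with PSMA7 first at 0.21 (SE 0.04, adjusted p = 0.00345). Under the ribosomal protein scaling the medians of these 3 lists were -0.06, -0.06 and -0.09, above the -0.14 of all genes but below 0. With the same 4 libraries left out in turn, in the order given above, 0, 1, 4 and 1 oxidative phosphorylation genes were higher, 0, 1, 5 and 0 glycolysis genes, and 1, 0, 5 and 1 proteasome genes. No call of ENO2, SLC16A3, PSMA7, COX5A or UQCRFS1 was kept in all 4 of the fits that leave out a library.

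Adhesion and epithelial lists held few calls, and among all genes of the highest level quartile 260 of 4001 were higher. Of 15 integrin genes, 2 were higher and 0 lower, and 0 were higher with plain totals. ITGB1, the beta subunit shared by many integrins, was at 1415 and 1448 CPM and then at 1625 and 1512 CPM, a change of 0.13 (SE 0.03, adjusted p = 0.0202) that was 0.00 under the ribosomal protein scaling, and ITGA5, the fibronectin receptor alpha chain, changed by 0.26 (SE 0.07, adjusted p = 0.035). ITGAV, at 0.03, and MET, the hepatocyte growth factor receptor, at 0.01, did not pass. Of 21 receptor tyrosine kinases, 2 were higher, AXL among them, at 332 and 332 CPM against 381 and 384 CPM. Of 16 keratin and ductal genes tested, 3 were higher, with KRT17 at 0.24 (SE 0.05) and KRT7 at 0.17 (SE 0.04). Focal adhesion genes were split, with 2 higher and 3 lower of 38; the adaptors BCAR1 and CRK fell by 0.46 and 0.37 on the log2 scale. None of these calls held in all 4 of the fits that leave out a library, where adjusted p reached 0.248 for ITGB1 and 0.371 for ITGA5.

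AU-rich element binding proteins are of interest here because KHSRP is one of them. Of 26 tested, 5 were higher and 1 lower, with a median log2 change of 0.05 (-0.08 under the ribosomal protein scaling). With plain totals 2 were higher and 2 lower. Over all genes 1.79% were called higher, and in the highest level quartile 260 of 4001. HNRNPA1 was at 2226 and 2269.6 CPM and then at 2598 and 2662 CPM, a change of 0.23 (SE 0.03, adjusted p = 2.63e-05). HNRNPA2B1, also counted among m6A readers, was at 2027 and 2049.9 CPM and then at 2366 and 2239.8 CPM (adjusted p = 0.000738). CELF1, which binds GU-rich elements and recruits deadenylases, was lower, with a log2 change of -0.21 (SE 0.05, adjusted p = 0.0181).

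Some early-response transcription factors fell. Of 24 tested, 0 were higher and 5 lower (20.8%, beside 2.07% of all genes), with a median log2 change of -0.12. In the KO series 4 of the 24 were higher and 3 lower between the same labels, with a median of 0.00. EGR1, a zinc finger factor, was at 16.3 and 17.8 CPM under the 0 h label and 11.1 and 10.9 CPM under the 8 h label, a change of -0.63 (SE 0.10, adjusted p = 0.000152). FOSB had 7.57 and 8.38 CPM and then 5.16 and 4.42 CPM (adjusted p = 0.00353), and JUN had 12.6 and 17.4 CPM and then 10.1 and 9.52 CPM (adjusted p = 0.0113). In all 3 both libraries labelled 8 h were below both labelled 0 h. Groups were apart in all 617 called genes and in 44.7% of all genes, so this adds nothing to the calls. FOS itself changed by -0.38 (SE 0.13, adjusted p = 0.111) and MYC by -0.13 (SE 0.09, adjusted p = 0.547), neither past the threshold. JUN had an adjusted p of 0.365 without NC 0h replicate 2, which held its highest value, and of 0.125 without NC 8h replicate 2. KLF2, another short-lived factor, had 0.985 and 2.43 CPM and then 0.344 and 0.263 CPM, and was the only one of 18 KLF, ID and HES factors that was called (adjusted p = 0.00235, or 0.166 without NC 0h replicate 2 and 0.0512 without NC 8h replicate 2).

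MCL1, an anti-apoptotic BCL2 protein with a short-lived message, fell from 117 and 112 CPM to 94.0 and 94.7 CPM, a log2 change of -0.28 (SE 0.05, adjusted p = 0.00217). It was the only one of 15 BCL2 family genes called. Its adjusted p was 0.0659 without NC 0h replicate 1. Among 16 cytokine and growth factor genes with AU-rich messages, 2 were higher and 0 lower, with a median of 0.23. With plain totals 0 were higher and the median was 0.19, and with the ribosomal protein scaling 0 and 0.10. CSF1, the macrophage growth factor, was at 5.91 and 5.20 CPM and then at 8.47 and 9.57 CPM (adjusted p = 0.0466). Its call was kept in none of the fits that leave out a library, where its log2 change lay between 0.61 and 0.80.

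Cell cycle genes were counted in 2 lists. Over all genes 2.07% were called lower and 1.79% higher. In the highest level quartile, 125 of 4001 were lower and 260 higher. In that for G1/S and DNA replication, 0 of 31 were higher and 7 lower, with a median of -0.12. CCNE2 had 15.2 and 17.9 CPM and then 10.5 and 10.2 CPM, a change of -0.67 (SE 0.14, adjusted p = 0.00273), CCNE1 changed by -0.57 (SE 0.14) and ORC1, of the origin recognition complex, by -0.52 (SE 0.12). Both cyclins E drive entry into S phase. Of 30 G2/M genes, 4 were higher and 1 lower, with a median of 0.03 (-0.11 under the ribosomal protein scaling). KIF20A, a mitotic kinesin, was at 0.23 (SE 0.05, adjusted p = 0.00837) and BIRC5, or survivin, at 0.17 (SE 0.04, adjusted p = 0.0251), while CCNA2 was at -0.30 (SE 0.07, adjusted p = 0.00588). Without NC 0h replicate 2 none of 32 G1/S genes tested was called, and without NC 8h replicate 2 only 1 was.

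Several lists of RNA metabolism and transcription held more falls than rises, with few calls in each. Over all genes 2.07% were called lower, and in the highest level quartile 125 of 4001. SR proteins and splicing regulators gave 0 higher and 4 lower of 26, with a median of -0.13. With NC 0h replicate 1, NC 0h replicate 2, NC 8h replicate 1 and NC 8h replicate 2 left out in turn, that median was -0.11, -0.10, -0.15 and -0.06. SRSF2 was at 354 and 365 CPM and then at 299.9 and 310.5 CPM, a change of -0.24 (SE 0.04, adjusted p = 0.000554), and SRSF4 and SON, a speckle scaffold, changed by -0.32 and -0.20. Deadenylation, decapping and exosome genes gave 0 higher and 5 lower of 43 (median -0.05), and 1, 2, 3 and 0 lower with the same 4 libraries left out in turn. Among the 5 were DDX6, the decapping-associated helicase, at -0.36 (SE 0.07, adjusted p = 0.00148) and EXOSC9 at -0.34. The list of RNA polymerase II and its factors gave 0 higher and 3 lower of 41, with a median of 0.03. It does not hold the subunit POLR2F, which was higher (0.50, SE 0.10, adjusted p = 0.00242). TBP, the TATA-binding protein, was at 6.94 and 6.04 CPM and then 3.35 and 3.95 CPM. Zinc finger genes on chromosome 19 gave 1 higher and 5 lower of 168, and those of other chromosomes 2 higher and 7 lower of 210. Both medians were -0.12, and the shares called were near those of all genes. ZNF525 rose with a log2 change of 0.59 (adjusted p = 0.038), and ZNF579 fell by 0.60 on the log2 scale (adjusted p = 0.0214).

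Translation factors gave 1 higher and 3 lower of 35. EIF4A2, a helicase of the cap-binding complex, rose with a log2 change of 0.29 (SE 0.06, adjusted p = 0.00158). EIF4E, the cap-binding protein, changed by -0.39 (SE 0.09), EIF3A by -0.17 (SE 0.05) and EIF4B by -0.16 (SE 0.04). In cholesterol synthesis, 1 was higher and 2 lower of 25. SQLE, which encodes squalene epoxidase, changed by -0.40 (SE 0.09, adjusted p = 0.0101).

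HSPA8 (chr11:122928197-122932844, minus strand, hg19), the constitutive cytosolic HSP70, fell and is an abundant message. It had 1504 and 1537 CPM under the 0 h label and 1154 and 1173 CPM under the 8 h label, a log2 change of -0.39 (SE 0.03, adjusted p = 1.76e-11). The gap between the groups was many times the gap between replicates. HSP90AA1, the inducible cytosolic HSP90, moved the other way, from 3744 and 3793 CPM to 4248 and 4157 CPM (log2 change 0.16, SE 0.03), as did the mitochondrial chaperonin HSPD1 (0.14, SE 0.03). In all, 2 of 16 heat shock genes were higher and 2 lower.

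By size alone, among genes of at least 10 CPM, the rises after RN7SK, MALAT1 and TALAM1 were those of LAMA3 (0.67), ENDOD1 (0.61), RPL26P4 (0.60), ZNG1E (0.54), MRPL54 (0.54), LMLN (0.53), MT2A (0.51), ENO2 (0.50) and POLR2F (0.50). MT2A, a metal-binding metallothionein, was the most abundant of them, at 144 and 157 CPM and then 202 and 227 CPM (SE 0.07, adjusted p = 1.14e-05). RPL26P4 is a pseudogene and ZNG1E one of several near-identical copies, so their reads are uncertain. The largest falls were those of AP5B1 (-0.74), KCTD7 (-0.68), CCNE2 (-0.67), GJC1 (-0.67), JAKMIP3 (-0.67), EDNRA (-0.64), ADCK2 (-0.63), EGR1 (-0.63), STXBP6 (-0.63), SPINK13 (-0.63), JAGN1 (-0.63) and MARCOL (-0.62). AP5B1, a subunit of the endosomal adaptor AP-5, was at 19.7 and 22.2 CPM and then at 13.7 and 11.3 CPM (SE 0.13, adjusted p = 0.000501).

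Several groups that respond to stress or to a transcription block showed no call. This was so for all 28 p53 targets tested, with a median log2 change of -0.03, all 17 NF-kappaB genes (-0.04) and all 17 DUSP and Sprouty genes (0.02). Only 3.86% of all genes were called, so no call in lists this short is near the share of all genes. CDKN1A, the p53-induced inhibitor p21, was at 29.7 and 26.03 CPM and then at 31.1 and 28.99 CPM (adjusted p = 0.668). MDM2, the ubiquitin ligase of p53, was at 57.7 and 58.2 CPM and then at 55.2 and 53.2 CPM (adjusted p = 0.647). By edgeR's unadjusted p under 0.05, 2 p53 targets were higher and 1 lower, 1 NF-kappaB gene was higher and 1 DUSP or Sprouty gene lower, and DESeq2 called none of them after adjustment.

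**Figure D4:**
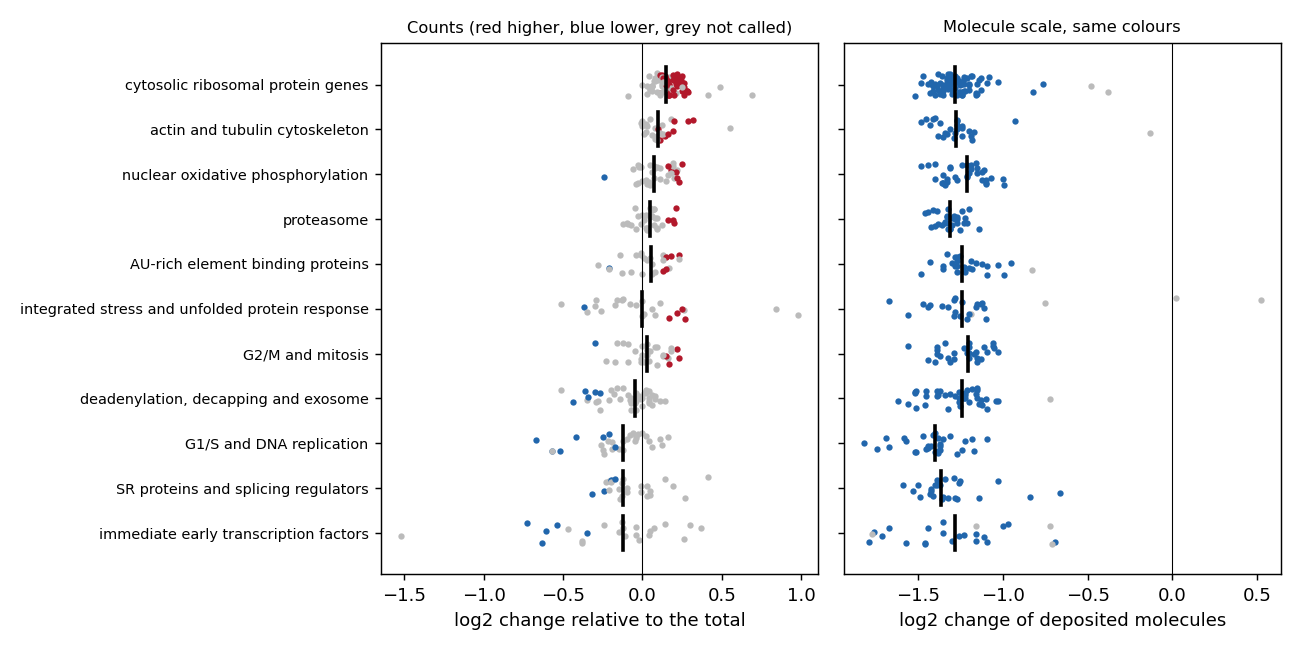
Log2 change of each tested member of 11 gene groups, relative to the total on the left and in deposited molecules on the right, with group medians as black bars and called genes in red (higher) or blue (lower). The ribosomal protein median was 0.15 on the left and -1.28 on the right, and the medians of the 11 groups on the right lay between -1.40 and -1.21.

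On the deposited molecule scale nearly every gene was lower at the 8 h label. Summed over genes, the libraries labelled 0 h held 85.6 and 82.6 in units of 1e+09 molecules and those labelled 8 h 35.5 and 33.8, so that the mean of the latter was 41.2% of the mean of the former. In limma on log2 molecules, 11904 of 16005 genes were lower (74.4%) and 16 were higher (0.100%), and the median log2 change was -1.16. The change was below 0 for 96.2% of genes. The 16 higher genes were trace transcripts, each under 1 CPM on average over the 4 libraries. In none of the 37 gene groups was a member called higher.

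This scale is tied to the RPKM column by construction. In each library the log2 of the molecules was a straight line of the log2 of the deposited RPKM, with a slope of 1.0821 and 1.0642 in the libraries labelled 0 h and of 1.0507 and 0.9996 in those labelled 8 h. A gene with the same RPKM in all 4 libraries would therefore show a log2 change of -1.03 at an RPKM of 1, -1.18 at 10, -1.34 at 100 and -1.50 at 1000. With RPKM in place of molecules, 30 genes were higher and 86 lower, and the median was -0.04. The size of the fall on the molecule scale, and its growth with the level of a gene, are thus those of the lines, and no source used here says how the authors set those lines.

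In units of 1e+06 molecules, RN7SK had 5.68 and 7.22 under the 0 h label and 8.81 and 8.30 under the 8 h label, a log2 change of 0.42 (adjusted p = 0.478). MALAT1 had 4.90 and 4.54 and then 3.72 and 3.26, a change of -0.44 (adjusted p = 0.000374), so its rise in share was a fall in molecules. GAPDH had 596 and 542 and then 219.9 and 186 (-1.49), and HSPA8 165 and 159 and then 47.2 and 42.1 (-1.86). RPL24 went from 204 and 194 to 92.2 and 82.1 (-1.20), and EGR1 from 0.864 and 0.975 to 0.253 and 0.284 (-1.76). The median of the ribosomal protein genes was -1.28, lower than that of all genes although their share rose, and that of the early-response factors was also -1.28. These medians do not compare genes of like level. On this scale the median was -0.86 in the lowest level quartile of genes and -1.23 in the highest. The part of level in the medians of the lists was not tested.

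**Figure D5:**
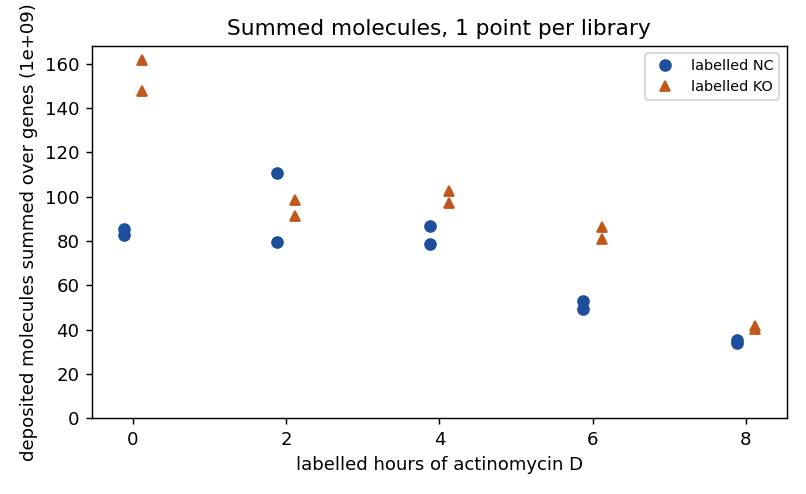
Deposited molecules summed over genes, in units of 1e+09, against labelled hours, with 1 point per library. The NC libraries labelled 8 h stood at 35.5 and 33.8, below every other NC library, and the KO libraries stood at 161.6 and 147.7 at 0 h and at 40.3 and 41.8 at 8 h.

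The called genes differed in length and level. In the quartile of genes with the shortest deposited length (49 to 1958 bases), 134 were higher and 32 lower, and in the quartile with the longest (5541 bases and more), 26 were higher and 137 lower. The medians of these quartiles were 0.04 and -0.05, and over all 16005 genes Spearman's rho of change with length was -0.11, as a description across genes of the same libraries. Of the rises, 260 of 286 were in the quartile of genes with the highest level (56.0 CPM and more), and of the falls 125 of 331. The part of length, level or RNA quality in these calls was not tested.

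Libraries that the comparison did not contrast were ordered in a fixed way for the same genes. Of the 286 genes called higher, 250 (87.4%) had their mean CPM at the 6 h label above that at 2 h, and that at 2 h above that at 4 h, against 31.5% of all genes tested. Of the 331 called lower, 253 (76.4%) had the opposite order, 4 h above 2 h above 6 h, against 32.6% of all genes. These 6 libraries entered the estimate of the spread but not the difference. With the 8 h and 0 h labels included, RPLP0 ran from 8 h through 0 h, 6 h and 2 h down to 4 h, and HSPA8 ran through the same labels upward. In both genes neighbouring labels in that order did not overlap.

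The KO series, with no library in common, gave more changes between the same labels. Over the 20 libraries, 3907 of 17715 genes were called between KO 8 h and KO 0 h (22.1%), 2004 of them higher (11.3%) and 1903 lower (10.7%). Of the 286 genes called higher in NC, 216 were called higher and 9 called lower in KO, and the median KO change was 0.27. Of the 331 called lower in NC, 207 were called lower and 3 higher, with a median of -0.41. The median over all genes was 0.00. Summed molecules in KO at the 8 h label were 26.6% of those at the 0 h label, beside 41.2% in NC. The libraries labelled KO differed from those labelled NC in more than KHSRP, which was at 139 and 149 CPM in KO against 439 and 453 CPM in NC at 0 h; KRT7, for example, was at 11.5 and 10.3 CPM in KO and at 816 and 819 CPM in NC.

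The difference between the NC and the KO change was itself tested. Since the NC and KO libraries differ in CDKN2A, KRT7 and other genes, an effect of KHSRP cannot be told apart from other differences between them. The change was higher in NC for 662 genes (3.74%) and lower for 507 (2.86%), together 6.60%. Of 30 G2/M genes, 21 differed, with 23 called lower in KO and 1 called lower in NC. PLK1, the mitotic kinase, was at 118 and 118 CPM and then 104 and 118 CPM in NC, and at 56.6 and 52.3 CPM and then 20.2 and 19.9 CPM in KO. The difference of its log2 changes was 1.35 (SE 0.10, adjusted p = 1.17e-12). Ribosomal protein genes rose in both series, 61 of 78 in KO with a median of 0.28, and 18 of them differed. EGR1 fell in NC, and in KO it had 2.53 and 2.31 CPM and then 4.77 and 2.83 CPM. The difference of its log2 changes was -1.27 (adjusted p = 0.000518). In KO these levels rest on 53 and 43 counts at 0 h and 89 and 56 at 8 h, so the higher mean there came mostly from replicate 1.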

How the data were processed

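Gene tables of the 20 actinomycin D libraries were read; 6 steady-state tables and 5 crosslinking samples were not used here. Per the file headers, the authors deposited raw counts, RPKM and a molecule signal for each of 43682 features, and log2 columns of the last 2. The submitters' processing notes name STAR, RSEM, Bowtie2, deepTools and build hg19, with no versions or roles. No source used here gives the counting settings, the use of strand or the making of the molecule scale. Counts totalled 19177934 to 25768060 a library; depth limits precision for low genes.

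Groups came from the titles. Genes passed edgeR's (version 4.0.16) filterByExpr over the 10 NC libraries, with TMM factors and a robust quasi-likelihood fit of 1 mean per label, and Benjamini-Hochberg adjustment; a call is an adjusted p under 0.05. Differences from KO used all 20 libraries. Molecules were tested with limma 3.58.1 (trend, robust) on log2(molecules + 2824), the pseudocount being the first percentile of nonzero values, so folds of low genes are understated. SE are those of the fits. The fits were tested on simulated data. Replicate numbers were not used as pairs. The labels do not state a pairing, and a correlation of deviations of 0.01 over 2 pairs cannot settle it. Replicates differed beyond counting error (chi-square per degree of freedom 3.90 and 5.20). The members and gene lists were chosen with earlier results of these data known. Named genes are 14 fixed genes, the 12 largest called rises and falls of at least 10 CPM, up to 3 each way per list, and 5 each way for the difference; not all are described, and some are not reported here. Alternatives were other scalings, filters, tests, samples and pseudocounts, and each library left out.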

Additional observations from a re-analysis of the deposited data

Results flagged for a closer look

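The change between the 8 h and 0 h labels differed between the NC and KO libraries for 662 genes with a higher change in NC and 507 with a lower one, by a test of the difference itself over the 20 libraries (edgeR, adjusted p under 0.05). The 5 largest differences each way among genes of at least 10 CPM under both labels were these. CDK7, a kinase of transcription initiation, differed by 1.57, since it changed by -1.91 in KO and by -0.34 in NC. PCIF1, the cap-adjacent m6Am methyltransferase, differed by 1.52, LEO1, a subunit of the elongation complex PAF1, by 1.47, NOP16, a nucleolar protein, by 1.37 and PLK1 by 1.35. In these 5 the KO libraries fell by 1.44 to 1.91 on the log2 scale, and in NC only NOP16 was called. In the other direction FAM156B differed by -1.05, ROMO1, a small mitochondrial protein, by -0.89, LRIG2 by -0.88, PXMP2, a peroxisomal membrane protein, by -0.87 and SH2D5 by -0.86. ROMO1 was at 18.1 and 20.9 CPM in KO at 0 h and at 38.5 and 41.0 CPM at 8 h, beside 22.6 and 23.0 CPM and then 25.2 and 25.2 CPM in NC. The part of the labels' order, which differed between NC and KO for the early-response transcripts, in these differences was not tested.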

How the results depend on the processing

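The counts of genes at an adjusted p under 0.05 depended on the fit. Relative to the total (286 higher, 331 lower), they were 120 and 543 with plain totals, 36 and 1793 with the library size from ribosomal protein genes, 366 and 280 with DESeq2 size factors, 470 and 321 with DESeq2's Wald test, 287 and 391 with no filter, 321 and 427 with at least 10 CPM in 2 libraries, 405 and 307 in the 4 libraries alone, 286 and 282 over all 20 libraries, and 347 and 343 without the libraries labelled NC 4 h, an alternative chosen after seeing the data. With each of the 4 libraries left out in turn they ran from 73 to 359 and from 63 to 303.

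On the molecule scale (16 higher, 11904 lower), 26 and 11906 passed with a 10 times smaller pseudocount, 10 and 11695 with a 10 times larger one, 0 and 10015 with at least 10 CPM (limma, where 0 were also higher at an unadjusted p under 0.05), 58 and 11316 with no filter, 30 and 86 with RPKM, 21 and 12328 in the 4 libraries, 20 and 11772 without the NC 4 h libraries, and 8 to 41 and 10495 to 11306 with a library left out. The difference between NC and KO (662 higher, 507 lower) gave 835 and 301 with plain totals, 6986 and 78 on molecules, and 465 to 573 and 256 to 458 with a library left out.

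The labels do not say whether replicate numbers pair the samples. Deviations of same-numbered samples correlated at 0.01, but 2 pairs are too few to settle this. A replicate block gave 306 and 354 relative to the total, 19 and 11912 on molecules, and 644 and 499 for the difference.

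Among the genes described, the sign turned with the ribosomal protein scaling for KHSRP (-0.13), ITGB1 (just below 0, at 0.00) and RPLP0 (-0.03), and with molecules for genes whose change in share was above 0: KHSRP -1.33, CDKN1A -1.04, ITGAV -1.23, ITGB1 -1.28, MET -1.27, GAPDH -1.49, ACTB -1.48, RPLP0 -1.42, MALAT1 -0.44, TALAM1 -0.48, LAMA3 -0.31, ENDOD1 -0.43, RPL26P4 -0.65, ZNG1E -0.58, MRPL54 -0.69, LMLN -0.51, MT2A -0.90, ENO2 -0.59, POLR2F -0.68, CSF1 -0.31, ZNF525 -0.40, RPL36 -1.13, RPL28 -1.03, RPL24 -1.20, EIF4A2 -1.0, COX5A -1.10, SLC16A3 -1.12, TMSB10 -1.24, MYL9 -0.93, KIF20A -1.05, BIRC5 -1.17, HSPA5 -1.13, PDIA4 -1.11, CALR -1.24, HSP90AA1 -1.33, HSPD1 -1.34, HNRNPA1 -1.22, HNRNPA2B1 -1.27, ZFAS1 -0.99, ITGA5 -0.96, AXL -1.09, KRT17 -1.16, KRT7 -1.28, PSMA7 -1.24, ROMO1 -1.15, PXMP2 -1.18, PCIF1 -1.12. In each of these genes at least 1 of the 2 fits gave a call. With no call in either fit, the sign also turned for 7 genes with the ribosomal protein scaling. The same held for 4 with plain totals, 2 on molecules and a few with a library left out. The cause was not tested, except that the molecule lines by their construction lower a gene of equal RPKM. Of the other calls of described genes, 12 were lost with plain totals, 26 with the ribosomal protein scaling, 9 over all 20 libraries, 4 in the 4 libraries alone, 1 with DESeq2 and 17 to 52 with a library left out, all with the same direction. Depth limits genes near the filter on low counts.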
